A study of Mus musculus with 25 samples.

Results

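Astrocytes lacking Smarca4 and studied 24 h after a systemic injection of lipopolysaccharide (LPS) were set against uninjured astrocytes of the same genotype. The data are raw counts of ribosome-associated messenger RNA in 6 libraries, 3 from LPS-treated and 3 from uninjured mice, out of 25 libraries of 7 groups in the series. Genes were members when they had over 10 raw counts in each of the 6 libraries, which held for 5149 of the 8052 genes of the deposited table (63.9%). This limit was set because many genes were near 0 counts in a single library. At the edge of the rule, 22 genes had a lowest count of 11 and were inside, and 13 had a lowest count of 10 and were outside. The highest library of these genes held a median of 6136 counts for those just inside and 7268 counts for those just outside.

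All 6 mice had the genotype GfapCre:Ribotagfl/fl:Smarca4fl/fl on a mixed C57BL6;129S2 strain. Cre under Gfap control deletes the floxed Smarca4 allele and switches on a haemagglutinin tag on ribosomes in the same cells, so the tagged RNA comes from every cell with Gfap-Cre activity, and the labels do not name the Cre line, the sex or the age of the mice. The treated mice received LPS intraperitoneally at 5 mg/kg (Smarca4cKO LPS), and the controls were left uninjured and carried the same deletion (Smarca4cKO uninjured). Further pairs of groups were used for comparison, Stat3-deleted mice (Stat3cKO, 4 LPS and 3 uninjured) and wild-type mice (WT, 4 LPS and 4 uninjured), both labelled C57BL6, so genotype and strain cannot be told apart between genotypes. The tissue was thoracic spinal cord, processed from 10 ng of RNA with an integrity number of at least 8.9. Each library has a number of its own as title and is treated as 1 replicate, but nothing in the labels ties the numbers to animals, so p-values measure the spread between these samples, which may be partly technical.

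LPS is a component of the outer membrane of Gram-negative bacteria. Sensed through Toll-like receptor 4, it makes immune and vascular cells release cytokines and interferons, to which astrocytes respond through NF-kB, STAT3, C/EBP and interferon-regulated factors, while the accompanying stress response raises glucocorticoids. Smarca4 encodes BRG1, a catalytic ATPase of the BAF (SWI/SNF) complex, which moves nucleosomes and opens enhancers for such factors. The comparison asks how astrocytes without this ATPase change their translated messenger RNA after a peripheral inflammatory challenge.

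Lcn2, the gene of the siderophore-binding protein lipocalin-2, and Serpina3n, the gene of a secreted serine protease inhibitor, rose after LPS in Smarca4cKO astrocytes, and both are widely used markers of astrocyte reactivity. In GENCODE M21 (GRCm38) the protein-coding gene Lcn2 (ENSMUSG00000026822) lies on chromosome 2 from 32384633 to 32388252 on the minus strand. Serpina3n (ENSMUSG00000021091) lies on chromosome 12 from 104406729 to 104414329 on the plus strand. The stretches before their RefSeq starts are shown because these were the genes past the test over the whole table, and that of H2-K1, the gene of a classical MHC class I heavy chain, is shown as a gene of another response. Each is the 250 bases before the start, 5′ to 3′, with capitals marking motif matches: Lcn2 at chr2:32387740-32387989 on the minus strand, Serpina3n at chr12:104406458-104406707 on the plus strand, and H2-K1, first of its RefSeq starts, at chr17:34000348-34000597 on the minus strand (GRCm38.p6). The Lcn2 window lies inside the GENCODE span of the gene given above, which reaches farther upstream than the RefSeq start.
Lcn2: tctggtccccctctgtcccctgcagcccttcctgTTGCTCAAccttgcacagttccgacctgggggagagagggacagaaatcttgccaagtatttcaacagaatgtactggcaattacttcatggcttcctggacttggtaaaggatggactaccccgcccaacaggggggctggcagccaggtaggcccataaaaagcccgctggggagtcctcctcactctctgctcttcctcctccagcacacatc
Serpina3n: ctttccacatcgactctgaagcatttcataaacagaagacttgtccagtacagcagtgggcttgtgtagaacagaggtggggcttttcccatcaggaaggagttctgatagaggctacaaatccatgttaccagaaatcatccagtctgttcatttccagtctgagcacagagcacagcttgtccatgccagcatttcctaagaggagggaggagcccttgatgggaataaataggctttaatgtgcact
H2-K1: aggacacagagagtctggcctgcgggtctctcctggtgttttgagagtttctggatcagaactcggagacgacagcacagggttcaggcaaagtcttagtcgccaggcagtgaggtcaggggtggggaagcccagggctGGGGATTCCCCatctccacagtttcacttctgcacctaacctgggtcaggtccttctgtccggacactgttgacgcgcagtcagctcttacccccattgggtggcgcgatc
The motifs searched on both strands were TTCNNNGAA for STAT factors, TTGCNNAA for C/EBP factors, and, by name, the interferon-stimulated response element core and the NF-kB consensus. The capitals in Lcn2 are a C/EBP match, TTGCTCAA, that begins 216 bases before the start. In H2-K1 they are a pair of overlapping NF-kB matches that begin 111 and 110 bases before the start, and the Serpina3n window held no match to these letters. Over all 32851 RefSeq windows of this length, 9.56% held the C/EBP letters, 7.25% the NF-kB consensus, 7.02% the STAT letters and 2.98% the interferon-stimulated response element core. These matches describe the letters and do not show binding.

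Depth was 64843911 to 106513035 counts over the listed genes in LPS libraries and 67848962 to 82318383 in uninjured libraries. The libraries differed far more in genes that were nearly absent: 983, 1200.0 and 109 genes had 10 counts or fewer in LPS libraries 1, 2 and 3, against 388, 738 and 506 in uninjured libraries 1, 2 and 3. LPS library 3, the deepest, had the fewest such genes. Of the 2903 genes outside the member set, 2040 were at or under 10 counts in 1 library and above it in the other 5. In LPS library 2 there were 710 genes low there and nowhere else, of which 674 had a median of at least 1000 counts in the other libraries. No pair of replicates agreed within counting noise (chi-square per degree of freedom at least 1057 in every pair), which does not show that they came from separate animals. LPS library 1 is labelled as LPS-treated and has a column in the LPS table, but its description also names the spinal cord injury comparison, in whose table it has no column.

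**Figure D1:**
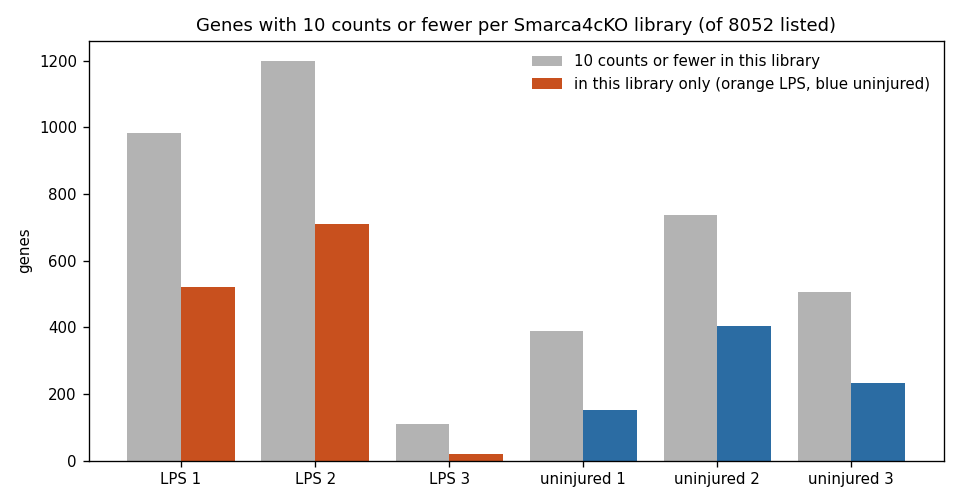
Number of genes with 10 raw counts or fewer in each Smarca4cKO library (grey bars) and the number low in that library alone (orange bars for LPS, blue bars for uninjured), LPS libraries on the left. LPS libraries 1 and 2 had 983 and 1200.0 such genes, LPS library 3 had 109, and the uninjured libraries had 388 to 738.

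The messenger RNA of the targeted gene was lower in all 6 Smarca4cKO libraries than in any library of the other genotypes. Scaled with the WT libraries, Smarca4 had 0.0165 to 48.5 CPM in Smarca4cKO LPS and 12.6 to 21.6 CPM in Smarca4cKO uninjured mice, against 66.5 to 123 CPM in WT LPS and 62.4 to 89.7 CPM in WT uninjured mice. Scaled with the Stat3cKO libraries, it had at most 49.6 CPM in any Smarca4cKO library, against 62.1 to 88.1 CPM in Stat3cKO LPS and 80.7 to 103 CPM in Stat3cKO uninjured mice. Between the Smarca4cKO groups, which share the deletion, Smarca4 had 1, 3664 and 651 raw counts in LPS libraries 1, 2 and 3, against 1132, 1592 and 1799 in uninjured libraries 1, 2 and 3, so it was not a member. The groups overlapped, and gene counts do not show which exons the reads came from, so the floxed exons could not be read separately. Smarca2, the gene of the alternative ATPase BRM of the same complex, had 154, 199 and 192 CPM (counts scaled to a common library total after TMM) in LPS libraries, against 161, 212 and 192 CPM in uninjured libraries. Its log2 fold change was -0.05 ± 0.26 (SE), with an edgeR adjusted p of 0.998. None of the 18 members that encode BAF subunits had groups that failed to overlap. Over all members, 8.76% were higher in every LPS library than in any uninjured one, and 6.49% were lower. The median log2 fold change of the BAF members was -0.02, against 0.05 over all members.

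In edgeR's quasi-likelihood test with Benjamini-Hochberg adjustment over 8040 tested genes, 2 members rose and 0 fell at an adjusted p under 0.05. This is 0.0249% of the tested genes higher and 0% lower, the same genes as in the whole table. At an unadjusted p under 0.05 there were 219 members higher and 116 lower. The count of calls depended strongly on the fit: the same test on the 5149 members alone called 20 higher (0.388%) and 2 lower (0.0388%), limma voom with sample quality weights called 38 members higher and 9 lower, and DESeq2 called 118 higher and 41 lower. Over the whole table, members and other genes together, the weighted limma fit called 73 of 8040 tested genes higher (0.908%) and 21 lower (0.261%), and DESeq2 called 202 of its 7788 tested genes higher (2.59%) and 86 lower (1.1%). In either direction these were 1.17% for weighted limma and 3.7% for DESeq2, and the fit of members alone called 0.427%. Of the 22 members called in the fit of members alone, 22 were also called by DESeq2 and 19 by both DESeq2 and the weighted limma fit, 17 of these higher and 2 lower. In the authors' deposited table, 55 members were higher and 5 lower at a false discovery rate under 0.05. Leaving out LPS library 1 gave 5 members that rose, with Apod and Gpx3 among the added ones.

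Lcn2 had 649, 926 and 839 CPM in LPS libraries 1, 2 and 3, against 0.164, 0.292 and 0.216 CPM in uninjured libraries, where 14, 21 and 17 reads were counted. Its log2 fold change was 11.81 ± 0.41, with an edgeR adjusted p of 2.19e-05. The groups were far apart, and the test held with any single library left out (edgeR adjusted p 1.59e-04 to 0.00306). Serpina3n had 3960.1, 4839 and 4807 CPM in LPS libraries, against 253, 312 and 328 CPM in uninjured libraries. It rose by 3.93 ± 0.19 on the log2 scale, with an edgeR adjusted p of 1.48e-04 and a range of 5.53e-04 to 0.00858 with a library left out. Unlike Lcn2, Serpina3n was well expressed in uninjured astrocytes, and reads that fit other genes of the Serpina3 cluster could be split between them.

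**Figure D2:**
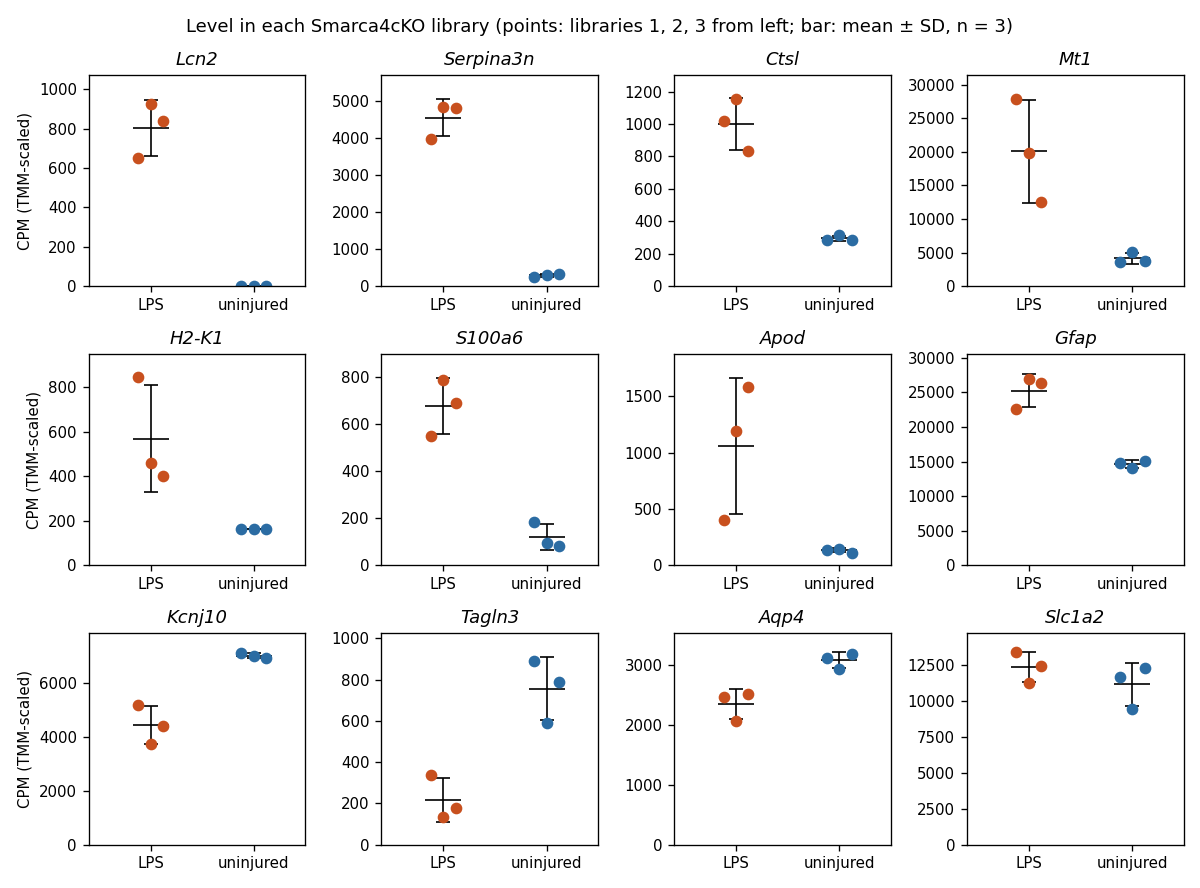
CPM in each Smarca4cKO library for 12 members, LPS libraries at the left and uninjured at the right of each panel, with libraries 1, 2 and 3 from left to right and the mean ± SD (n = 3) as a bar. Lcn2 lay at 649 to 926 CPM after LPS and at most 0.292 CPM in uninjured mice, Kcnj10 and Tagln3 were lower after LPS in every library, and Slc1a2 overlapped between the groups.

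No other member passed the test over the whole table. Where 2 adjusted p-values are given below, the first is over the whole table and the second from the fit of members alone. Among the rises closest to the threshold, Ctsl, the gene of the lysosomal protease cathepsin L, had 1020.1, 1152 and 831 CPM in LPS libraries, against 284, 313 and 287 CPM in uninjured libraries. The groups were well apart, with a log2 fold change of 1.76 ± 0.20 and edgeR adjusted p-values of 0.0542 over the whole table and 0.00623 over the members (0.0677 to 0.394 over the whole table with a library left out). Mt1, the gene of a metal-binding metallothionein, was among the most abundant messages, with 27896, 19834 and 12494 CPM after LPS, against 3641, 5091 and 3682 CPM in uninjured mice (log2 fold change 2.28 ± 0.30; edgeR adjusted p 0.0786 and 0.00112). Its neighbour Mt2 showed a wider spread, at 21588, 6201 and 4246 CPM after LPS, against 1353, 2636 and 1526 CPM in uninjured mice, and its edgeR adjusted p was 0.265 and 0.0653. LPS library 1 was the highest for both metallothioneins, which are close copies between which reads could be split. S100a6, the gene of a calcium-binding protein, averaged 675 ± 119 CPM after LPS and 121 ± 55.7 CPM in uninjured mice (SD, n = 3 each; edgeR adjusted p 0.0908 and 0.0114).

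Small heat shock proteins are chaperones that hold unfolded proteins, and of the 4 such genes of the chaperone list with a row, 3 had higher CPM in every LPS library than in any uninjured one. Hspb1 had 1886, 1347 and 507 CPM after LPS, against 27.1, 5.12 and 33.5 CPM in uninjured mice, a log2 fold change of 5.83 ± 0.83 with edgeR adjusted p-values of 0.0908 and 0.00334. Hspb6 averaged 317 ± 58.2 CPM after LPS and 53.7 ± 22.1 CPM in uninjured mice (SD, n = 3 each), with edgeR adjusted p-values of 0.0908 and 0.0262. Hspb8 averaged 436 ± 85.6 CPM after LPS and 189 ± 68.6 CPM in uninjured mice, and its edgeR adjusted p was 0.29 and 0.299. The fourth, Cryab, which encodes alpha B-crystallin, overlapped at 987 ± 154 CPM after LPS and 829 ± 157 CPM in uninjured mice (edgeR adjusted p 0.998 and 0.88). Over the 27 members of the chaperone and unfolded protein response list, 5 did not overlap and were higher after LPS, 0 were lower, and the median log2 fold change was 0.37. Over all members, the non-overlapping shares were 8.76% higher and 6.49% lower. Calreticulin and calnexin, endoplasmic reticulum chaperones, were near 0 (log2 fold changes -0.06 for Calr and -0.05 for Canx).

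Of the 5149 members, 451 were higher in every LPS library than in any uninjured one (8.76%), and 334 were lower (6.49%). The counts for each list are to be read against these shares. Of 7 pan-reactive astrocyte members, 6 did not overlap and were higher, 0 were lower, and the median log2 fold change was 2.15. These were Lcn2, Hspb1, Serpina3n, Cp, Vim and Gfap, the last of which had 22537, 26893 and 26308 CPM after LPS, against 14746, 14102 and 15123 CPM in uninjured mice. Gfap encodes the astrocytic intermediate filament protein and was the most abundant astrocyte marker, with a log2 fold change of 0.78 ± 0.12 and edgeR adjusted p-values of 0.0978 and 0.00334. Vim, the gene of the filament protein vimentin, averaged 708 ± 155 CPM after LPS and 305 ± 60.8 CPM in uninjured mice (SD, n = 3 each; edgeR adjusted p 0.2 and 0.122). The list was defined in astrocytes of LPS-treated and ischaemic mice, so its direction is not independent of this challenge.

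**Figure D3:**
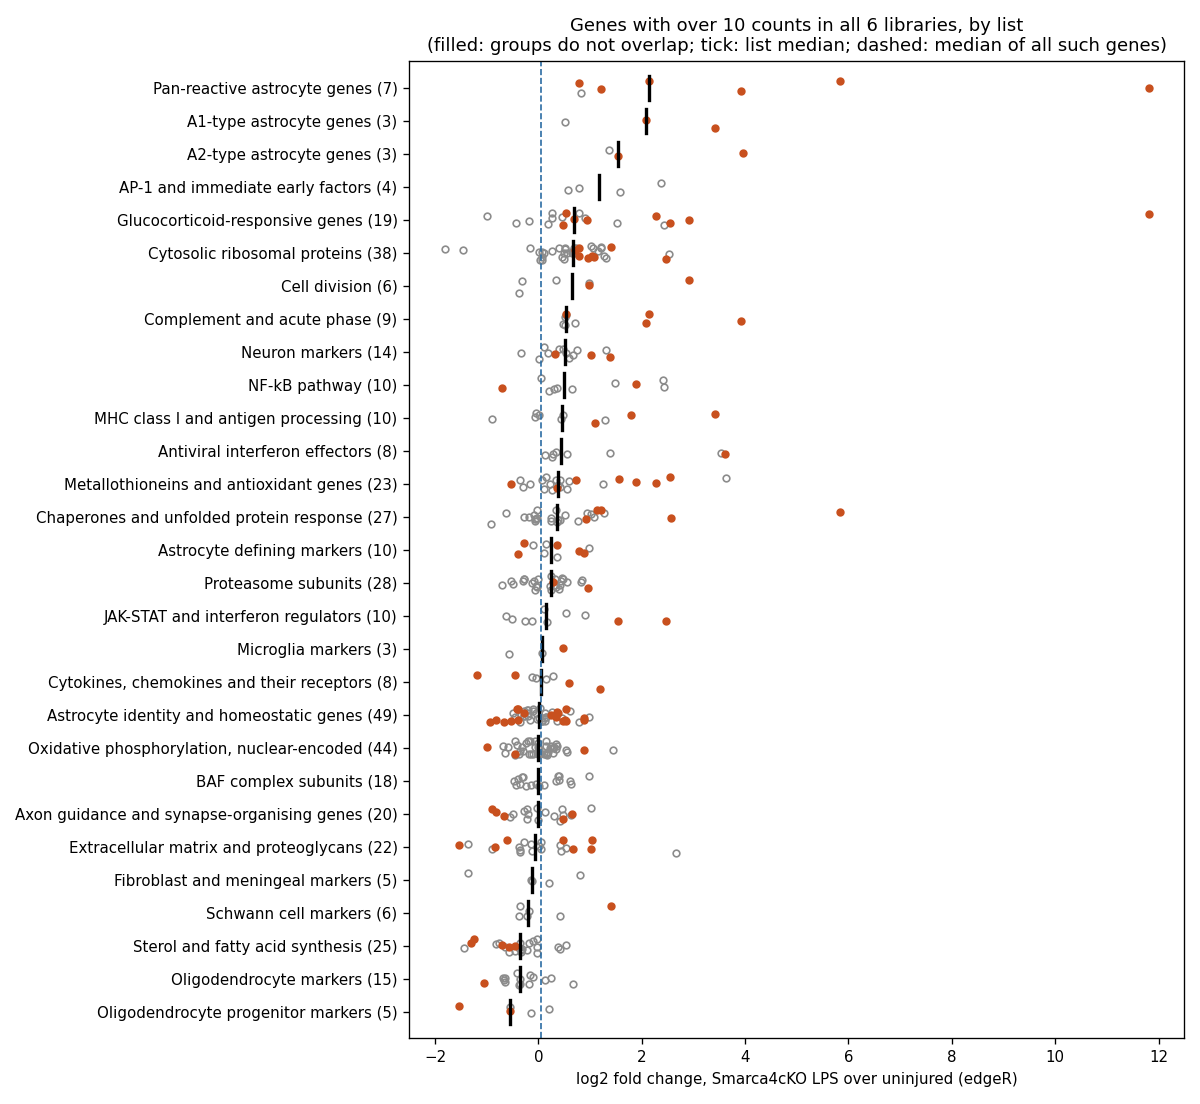
log2 fold change (LPS over uninjured, edgeR) of each member by gene list, with the number of members in brackets; filled points have groups that do not overlap, ticks are list medians and the dashed line is the median of all members (0.05). The pan-reactive list has a median of 2.15, and the oxidative phosphorylation list lies around 0.

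Complement proteins tag targets for clearance, and acute phase proteins are made in inflammation. Of 9 members of this list, 4 did not overlap and were higher, with a list median of 0.54; they were Serpina3n, Cp, Serping1 and Clu. Cp, the gene of the copper ferroxidase ceruloplasmin, had 61.6, 153 and 138 CPM after LPS, against 13.6, 42.5 and 23.4 CPM in uninjured mice (edgeR adjusted p 0.423). Serping1, which encodes the C1 inhibitor, averaged 97.4 ± 24.1 CPM after LPS and 23.2 ± 8.68 CPM in uninjured mice (SD, n = 3 each; edgeR adjusted p 0.407). Clu, the gene of the secreted chaperone clusterin, averaged 7347 ± 405 CPM after LPS and 5061 ± 80.3 CPM in uninjured mice (edgeR adjusted p 0.251). C3, the central complement component, had 438, 720.0 and 857 CPM after LPS, against 536, 452 and 429 CPM in uninjured mice, so its groups overlapped (log2 fold change 0.51 ± 0.27; edgeR adjusted p 0.998).

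MHC class I genes present peptides to T cells, and B2m encodes their shared light chain. H2-K1 had 844, 461 and 400.3 CPM after LPS, against 164, 163 and 163 CPM in uninjured mice, and H2-D1 had 637, 453 and 247 CPM after LPS, against 79.3, 19.7 and 25.8 CPM in uninjured mice. B2m averaged 926 ± 209.5 CPM after LPS and 432 ± 53.9 CPM in uninjured mice (SD, n = 3 each). In the fit of members alone the edgeR adjusted p was 0.0453 for H2-K1, 0.0328 for H2-D1 and 0.122 for B2m, and over the whole table it was 0.138, 0.163 and 0.204 in the same order. These 3 were the non-overlapping ones among 10 members of the antigen-processing list, whose median log2 fold change was 0.46. The class I heavy chain genes are close copies of each other, so reads could be split between them. Ifitm3, an interferon-induced membrane protein that restricts virus entry, had 346, 148 and 137 CPM after LPS, against 16.1, 20 and 15.2 CPM in uninjured mice (edgeR adjusted p 0.0908 and 0.0114). It was the only non-overlapping gene among 8 antiviral interferon members, all 8 of which had a positive log2 fold change.

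Several interferon-inducible genes and Stat3 varied between the LPS libraries. Stat3, the transcription factor of interleukin-6 family signalling, had 518, 172 and 167 CPM after LPS, against 123, 122 and 51 CPM in uninjured mice, with an edgeR adjusted p of 0.606. Irgm1, an interferon-inducible GTPase of cell-autonomous defence, had 476, 67.6 and 48.3 CPM after LPS, against 44.2, 19.5 and 17 CPM in uninjured mice (edgeR adjusted p 0.502). In both, LPS library 1 stood far above the other LPS libraries, and without it the log2 fold change was 0.79 for Stat3 and 1.12 for Irgm1, compared with 1.53 and 2.88 for these genes when all 6 libraries were used. Across the whole table LPS library 1 held the highest LPS value for 35.2% of genes, but for 8 of 8 interferon-inducible GTPases, 13 of 18 antiviral interferon effectors and 11 of 16 cytokine, chemokine and receptor genes (100%, 72.2% and 68.8%). It was also the highest for 9 of 15 antigen-processing genes (60%), but for only 6 of 16 JAK-STAT and interferon regulators (37.5%), as was LPS library 2. This excess was not confined to interferon and cytokine genes. LPS library 1 was also the highest for 19 of 28 glucocorticoid-responsive genes (67.9%) and 8 of 12 immediate early factors (66.7%). It was the highest for 1 of 13 complement and acute phase genes (7.69%) and 5 of 24 BAF subunit genes (20.8%). The chemokine Cxcl10 had 136911, 9 and 713 raw counts in LPS libraries 1, 2 and 3, against 1, 7 and 2 in uninjured libraries, and was too low in most of them to be tested in the fit of these 6 libraries. It was tested in the comparisons with WT and Stat3cKO below, where its response did not pass as different (edgeR adjusted p 0.525 and 0.997). The cause of the spread between the LPS libraries was not tested.

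Genes known to respond to glucocorticoids formed a list of 19 members, of which 8 did not overlap and were higher, 0 were lower, and the median log2 fold change was 0.69. Besides Lcn2, Mt1 and Mt2 they included Fam107a, an actin-binding protein gene, with 2216 ± 217 CPM after LPS and 1162 ± 186 CPM in uninjured mice (SD, n = 3 each; edgeR adjusted p 0.193). Cdkn1a, which encodes the cell cycle inhibitor p21, had 2549.7, 445 and 296 CPM after LPS, against 114, 209 and 110.3 CPM in uninjured mice, with LPS library 1 again the highest (edgeR adjusted p 0.31). Glul, the gene of glutamine synthetase, averaged 7425 ± 1313 CPM after LPS and 5095 ± 726 CPM in uninjured mice (edgeR adjusted p 0.523). Among 23 metallothionein and antioxidant members, 6 did not overlap and were higher and 1 was lower. Gpx1, a glutathione peroxidase gene, averaged 370.3 ± 56.5 CPM after LPS and 100.2 ± 52.7 CPM in uninjured mice. Gpx3, its secreted relative, had 41.4, 1180.0 and 1004 CPM after LPS, against 56, 50 and 74.5 CPM in uninjured mice, so LPS library 1 lay below the uninjured range and the edgeR adjusted p was 0.00331 without it, against 0.304 with it.

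Several further members called in the fit of members alone, by DESeq2 and by the weighted limma fit encode secreted or membrane proteins. Apod, the gene of the lipid-binding apolipoprotein D, had 399, 1192 and 1578 CPM after LPS, against 138, 148 and 112 CPM in uninjured mice (edgeR adjusted p 0.0978, 0.0114 over members, and 0.00405 without LPS library 1). Chst2, which sulfates glycans, averaged 412 ± 139 CPM after LPS and 106 ± 17.6 CPM in uninjured mice (SD, n = 3 each). Olfm1, the gene of the secreted protein olfactomedin 1, averaged 539 ± 166 CPM after LPS and 159 ± 14.5 CPM in uninjured mice. Lrrc8a, a subunit of the volume-regulated anion channel, averaged 1113 ± 214 CPM after LPS and 447 ± 70.2 CPM in uninjured mice. Their edgeR adjusted p-values over the members were 0.0429, 0.0429 and 0.0445 in this order. Fam129b, Dhrs1 and Tmsb4x, which encode a cytoplasmic adaptor, a dehydrogenase and the actin-binding thymosin beta 4, had log2 fold changes of 2.02 ± 0.30, 1.36 ± 0.21 and 1.22 ± 0.18, each with an edgeR adjusted p of 0.0908 over the whole table.

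All 10 defining astrocyte markers were members. Their summed level was 58661 to 60422 CPM after LPS and 44094 to 48737 CPM in uninjured mice, with the smallest p that 3 against 3 allows (exact two-sided permutation test, p = 0.1), and Gfap was the most abundant of them. Of the 10, 3 (30%) did not overlap and were higher and 2 (20%) were lower, against 8.76% and 6.49% over all members. The sum was not tested without Gfap, so it does not show a rise of these markers in general. Among 49 homeostatic members, 10 were higher and 8 lower without overlap, and the median log2 fold change was 0.02. The glutamate transporter genes Slc1a2 and Slc1a3 overlapped, with log2 fold changes of 0.15 ± 0.15 and 0.36 ± 0.32. Slc1a2 had 13413, 11292 and 12462 CPM after LPS, against 11713, 9482 and 12337 CPM in uninjured mice. Agt, the gene of angiotensinogen, averaged 3302 ± 184 CPM after LPS and 1795 ± 250.4 CPM in uninjured mice (SD, n = 3 each; edgeR adjusted p 0.155 and 0.0453), and Aldh1l1, a folate enzyme gene used as an astrocyte marker, averaged 681 ± 49.2 CPM after LPS and 372 ± 51.6 CPM in uninjured mice.

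Several channel and transporter genes of astrocytes had lower CPM in every LPS library than in any uninjured one. Kcnj10, the gene of the inward rectifier potassium channel Kir4.1, had 5176, 3753 and 4405 CPM after LPS, against 7099, 7019 and 6918 CPM in uninjured mice. Its log2 fold change was -0.66 ± 0.15, with edgeR adjusted p-values of 0.254 over the whole table and 0.0483 over the members. Slc7a10, an amino acid exchanger gene, had 482, 368 and 409 CPM after LPS, against 955, 684 and 759.5 CPM in uninjured mice (edgeR adjusted p 0.245 and 0.167). The water channel gene Aqp4 averaged 2350.0 ± 245 CPM after LPS and 3080.3 ± 132 CPM in uninjured mice (edgeR adjusted p 0.653), and the gap junction gene Gja1 averaged 1641 ± 63.5 CPM after LPS and 1983 ± 149 CPM in uninjured mice (edgeR adjusted p 0.998). Neither pair of groups overlapped, although the differences did not pass the test.

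The other falls nearest the threshold were of varied function. Tagln3, a neuronal-type calponin family gene, had 335, 131 and 178 CPM after LPS, against 891, 589.7 and 787 CPM in uninjured mice (log2 fold change -1.81 ± 0.37; edgeR adjusted p 0.2 and 0.0489). Rhoq, the gene of a small GTPase, had 105, 107 and 164 CPM after LPS, against 341, 423 and 318 CPM in uninjured mice (edgeR adjusted p 0.163 and 0.0864). Psd2, Gpd1, Ank, Apln, Gria1 and Eps15 had log2 fold changes of -1.01, -0.86, -1.09, -1.28, -0.78 and -0.96, and edgeR adjusted p-values of 0.2 to 0.273 over the whole table. They encode an exchange factor for Arf6, glycerol-3-phosphate dehydrogenase, a pyrophosphate transport protein, the peptide hormone apelin, an AMPA receptor subunit and an endocytic adaptor.

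Astrocytes supply cholesterol and unsaturated fatty acids to other cells of the nervous system. Of 25 members of the sterol and fatty acid synthesis list, 5 did not overlap and were lower, 0 were higher, 3 had a positive log2 fold change, and the median was -0.35. Insig1, which retains the sterol sensor in the endoplasmic reticulum, had 167, 108 and 175 CPM after LPS, against 463, 212 and 432 CPM in uninjured mice (edgeR adjusted p 0.312). Dhcr7, an enzyme of the last steps of cholesterol synthesis, averaged 111 ± 61.4 CPM after LPS and 261 ± 52.4 CPM in uninjured mice (SD, n = 3 each). The desaturase genes Scd2, Fads1 and Fads2 had log2 fold changes of -0.46 ± 0.16, -0.58 ± 0.18 and -0.71 ± 0.24. Their edgeR adjusted p-values were 0.575, 0.422 and 0.523 over the whole table and 0.203, 0.261 and 0.393 over the members. Among 22 extracellular matrix members, 4 were higher and 3 lower without overlap, and the lower ones included Timp3, an inhibitor of matrix metalloproteinases, at 454 ± 98.4 CPM after LPS and 807 ± 103 CPM in uninjured mice.

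Markers of other cells moved with the groups to different degrees, and their part in the results above was not tested. The table used here had no row for the 12 neutrophil, 13 T and B cell or 7 erythrocyte markers, and of 14 endothelial markers only Slc2a1, a glucose transporter gene, had one, at 796, 231 and 353 CPM after LPS, against 324, 335 and 298 CPM in uninjured mice. Of 20 microglial markers 5 had a row, with a sum of 13653 to 15443 CPM after LPS and 10369 to 10804 CPM in uninjured mice (exact p = 0.1). Sparc, which astrocytes also express, made up nearly all of it at 14391 ± 901 CPM after LPS and 10283 ± 316 CPM in uninjured mice (SD, n = 3 each). Without Sparc the other 4 summed to 137 to 296 CPM after LPS and 133 to 377 CPM in uninjured mice (exact two-sided permutation test, p = 0.7). The 18 listed oligodendrocyte markers summed to 6859 to 13008 CPM after LPS and 7957 to 15455 CPM in uninjured mice (exact p = 0.5), with Mbp the most abundant at 3343 ± 1286 CPM after LPS and 4261 ± 1276 CPM in uninjured mice. The 8 listed oligodendrocyte progenitor markers summed to 969 to 1671 CPM after LPS and 1842 to 1943 CPM in uninjured mice, and 17 listed neuronal markers to 1295 to 1800.0 CPM after LPS and 1065 to 1222 CPM in uninjured mice. The 6 listed fibroblast and meningeal markers, led by Ptgds, summed to 1137 to 1597 CPM after LPS and 887 to 1106 CPM in uninjured mice. In none of these last 3 lists did the groups overlap, each with the smallest exact p possible, 0.1. Ptgds, a prostaglandin D synthase gene, carried the fibroblast and meningeal sum: the other 5 summed to 416 to 499.9 CPM after LPS and 425 to 536 CPM in uninjured mice (exact two-sided permutation test, p = 0.6). Olig1, a progenitor transcription factor gene, averaged 756 ± 59.2 CPM after LPS and 1110.4 ± 66.8 CPM in uninjured mice, while the most abundant neuronal marker, Map2, overlapped at 331 ± 31.3 CPM after LPS and 253 ± 152 CPM in uninjured mice. The summed macrophage, pericyte, ependymal and Schwann cell markers overlapped between the groups (exact p = 0.7, 0.3, 0.8 and 0.2), led by Lgals3, Notch3, Foxj1 and Mbp. In these bulk samples fewer cells of a type and less RNA per cell cannot be told apart.

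The LPS response was next compared with that of WT astrocytes through an interaction term in edgeR over 14 libraries. Of 7919 tested genes, 25 differed (0.316%), 14 with a higher (0.177%) and 11 with a lower (0.139%) log2 response in Smarca4cKO, and 3 of the 25 had over 10 counts in every library. Vdac2, the gene of a mitochondrial outer membrane channel, averaged 221 ± 48.8 CPM in Smarca4cKO LPS and 115 ± 27.8 CPM in Smarca4cKO uninjured mice, against 131 ± 26.3 CPM in WT LPS and 221 ± 18.7 CPM in WT uninjured mice. The difference of its log2 responses was 1.70 ± 0.33 (edgeR adjusted p 0.047). Kif5a, the gene of a kinesin heavy chain of axonal transport, averaged 99.7 ± 39.5 and 151 ± 63.8 CPM in Smarca4cKO LPS and uninjured mice, and 145 ± 14.8 and 29.8 ± 13.3 CPM in WT LPS and uninjured mice (difference -2.88 ± 0.56; edgeR adjusted p 0.0458). The third was 1700003M07Rik (difference -2.38 ± 0.43; edgeR adjusted p 0.0258). None of the 3 passed when the test was run on genes with over 10 counts in every library (adjusted p 0.142 to 0.37), a fit with 0 calls. With a library left out, 1700003M07Rik lost its call in 5 of 14 fits, Kif5a in 9 and Vdac2 in 11. The count of 25 was also set by single libraries: it was 367 without Smarca4cKO LPS library 3, 115, 49 and 73 without Smarca4cKO uninjured libraries 1, 2 and 3, 14 without WT LPS library 2 and 15 without WT uninjured library 4. DESeq2 gave 100 genes and edgeR at an unadjusted p under 0.05 gave 376.

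The genes that marked the response in Smarca4cKO astrocytes did not pass the test of a difference from WT. The log2 response of Serpina3n was 3.92 ± 0.44 in Smarca4cKO and 5.48 ± 0.41 in WT (difference -1.55 ± 0.52, edgeR adjusted p 0.556). Its LPS levels overlapped, at 3733 to 4610 CPM in Smarca4cKO and 2872 to 8313 CPM in WT. Its uninjured levels did not, at 241 to 309 CPM in Smarca4cKO and 52.7 to 194 CPM in WT. This level difference was not tested. The log2 response of Lcn2 was 11.80 ± 0.76 in Smarca4cKO and 12.42 ± 0.68 in WT (difference -0.62 ± 0.74, edgeR adjusted p 1). Gfap had log2 responses of 0.78 ± 0.15 in Smarca4cKO and 0.28 ± 0.13 in WT (difference 0.50 ± 0.19; edgeR adjusted p 0.761). A missed threshold does not show equal responses. Ctsl and Fam129b had differences from WT of 0.05 ± 0.28 and 0.11 ± 0.46 (edgeR adjusted p 1 for both).

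Set against Stat3cKO astrocytes, more responses differed. Over 13 libraries, 67 of 7992 tested genes passed the interaction test (0.838%), 37 higher (0.463%) and 30 lower (0.375%) in Smarca4cKO, and 28 of them had over 10 counts in every library (12 higher and 16 lower). Clu averaged 6999 ± 314 CPM in Smarca4cKO LPS and 4806 ± 77.9 CPM in Smarca4cKO uninjured mice, against 4097 ± 340.4 CPM in Stat3cKO LPS and 5821 ± 237 CPM in Stat3cKO uninjured mice, all scaled together, so the responses had opposite signs (difference 1.05 ± 0.14; edgeR adjusted p 0.0055). Agt had a log2 response of 0.88 ± 0.12 in Smarca4cKO and -0.24 ± 0.11 in Stat3cKO (difference 1.12 ± 0.16; edgeR adjusted p 0.0095). Taken alone, the fall in Stat3cKO passed for Clu but not for Agt (edgeR adjusted p 0.0104 and 0.427). Clu, Agt and 1700003M07Rik passed with any single library left out. Fam129b averaged 282 ± 71.3 CPM in Smarca4cKO LPS and 69.2 ± 10.5 CPM in Smarca4cKO uninjured mice, against 61.6 ± 20.9 and 61.1 ± 6.16 CPM in Stat3cKO LPS and uninjured mice (difference 2.02 ± 0.40; edgeR adjusted p 0.0386). Ctsl, the zinc transporter gene Slc39a1, the endoplasmic reticulum protein gene Wfs1 and the scaffold gene Mpp6 had differences of 1.35 ± 0.27, 1.71 ± 0.35, 1.17 ± 0.24 and 1.60 ± 0.33 (edgeR adjusted p 0.0397 to 0.044), and lost their calls in 8 to 11 of 13 fits that left out a library, Fam129b in 10. In the fit of genes with over 10 counts in every library, none of these 5 passed (edgeR adjusted p 0.0547 for Ctsl and Fam129b, 0.0603 for Slc39a1, 0.113 for Wfs1 and 0.108 for Mpp6), while Clu and Agt did (0.00587 and 0.0116).

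In the other direction, large differences included those of Samhd1, Txnip, 1700003M07Rik and Kif5a. Samhd1, which degrades deoxynucleotides and restricts viruses, averaged 53.3 ± 41.0 CPM in Smarca4cKO LPS and 43.6 ± 24.1 CPM in Smarca4cKO uninjured mice, against 249 ± 36.7 CPM in Stat3cKO LPS and 17.6 ± 5.79 CPM in Stat3cKO uninjured mice (difference -3.54 ± 0.72; edgeR adjusted p 0.0404). Txnip, which binds thioredoxin, had a difference of -3.30 ± 0.64 (edgeR adjusted p 0.0358). Kif5a had a difference of -2.58 ± 0.49 and 1700003M07Rik of -3.03 ± 0.48 (edgeR adjusted p 0.0301 and 0.0109); the Smarca4cKO libraries are those also set against WT. With a library left out, Samhd1 lost its call in 9 of 13 fits, Txnip in 8 and Kif5a in 7, and all of these named lower differences passed in the fit of genes with over 10 counts in every library (edgeR adjusted p 0.0193 to 0.039). In WT the log2 responses were -0.18 ± 0.71 for Samhd1 and 1.54 ± 0.67 for Txnip. Neither gene passed the test of a difference between Smarca4cKO and WT. Serpina3n had a log2 response of 3.94 ± 0.24 in Smarca4cKO and 2.69 ± 0.22 in Stat3cKO, which did not pass (difference 1.25 ± 0.30; edgeR adjusted p 0.0839). Lcn2, not over 10 counts in every library here, had 11.81 ± 1.05 and 7.46 ± 0.88 (difference 4.36 ± 1.00; edgeR adjusted p 0.0723). DESeq2 called both differences (DESeq2 adjusted p 0.00309 for Serpina3n and 7.3e-04 for Lcn2). The count of 67 was 466 without Smarca4cKO LPS library 3, 178 and 133 without Smarca4cKO uninjured libraries 1 and 3, 38, 32, 42 and 34 without Stat3cKO LPS libraries 1, 2, 3 and 4, and 30, 15 and 20 without Stat3cKO uninjured libraries 1, 2 and 3. The fit of genes with over 10 counts in every library gave 12, DESeq2 gave 210, and edgeR at an unadjusted p under 0.05 gave 587.

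**Figure D4:**
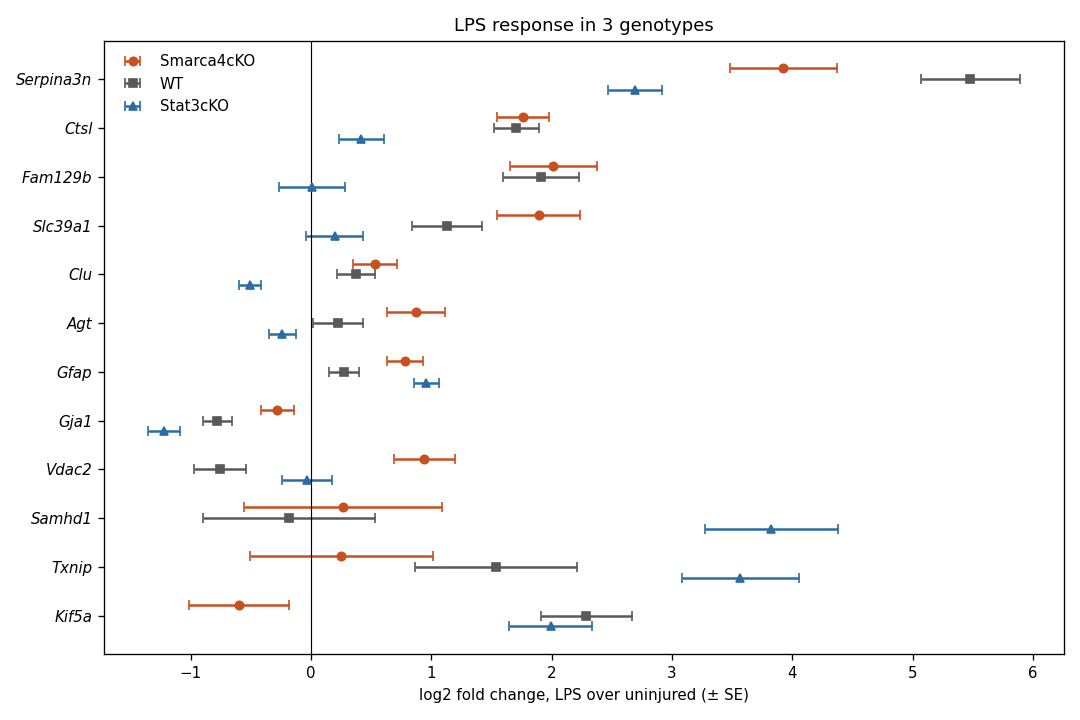
log2 fold change (LPS over uninjured, ± SE) of 12 genes in Smarca4cKO (circles), WT (squares) and Stat3cKO (triangles), the first and second from the 14-library fit and the third from the 13-library fit. Clu and Agt were above 0 in Smarca4cKO and below 0 in Stat3cKO, and Samhd1 and Txnip lay farthest right in Stat3cKO. The Agt response in Stat3cKO did not pass the test.

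Outside the member set, 68 genes had over 10 counts in all 3 LPS libraries and 10 or fewer in all 3 uninjured libraries (0.845% of the table), and 39 had the opposite pattern (0.484%). The genes named here were chosen after their values were seen. Among known inflammatory genes were Gbp3, an interferon-inducible GTPase, with 18061, 5416 and 4062 raw counts after LPS, against 0, 2 and 1 in uninjured libraries, and Osmr, the oncostatin M receptor, with 10389, 5823 and 3718 after LPS, against 6, 1 and 2 in uninjured libraries. Saa3, an acute phase apolipoprotein, had 2439, 5300 and 5449 counts after LPS, against 2, 2 and 5 in uninjured libraries. Psmb8, an immunoproteasome subunit, had 3831, 3961 and 2529 counts after LPS, against 0, 1 and 1 in uninjured libraries, a ratio of 4757. The same counts chose these genes, so no test of them is given.

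The same all-or-none pattern took in genes that other genotypes expressed at rest. Gpx8, a glutathione peroxidase of the endoplasmic reticulum, had 2280, 2073 and 2176 raw counts after LPS, against 0, 0 and 0 in uninjured libraries (at least 2006-fold higher, taking 3 counts over the group as the floor). In WT uninjured libraries it had 1736 to 2057 counts. Of the 68 genes, 55 were in the WT table, and 19 of these had over 10 counts in every WT uninjured library, while 37 of the 62 in the Stat3cKO table had over 10 in every Stat3cKO uninjured library. Of the 39 genes of the opposite pattern, 13 of the 19 in the WT table and 25 of the 28 in the Stat3cKO table had over 10 counts in every uninjured library of that genotype. Angel1, for example, had 0, 1 and 0 counts in Smarca4cKO LPS libraries, against 1582, 1629 and 4274 in Smarca4cKO uninjured libraries. The share of this pattern that comes from libraries in which many genes were near 0 was not tested.

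**Figure D5:**
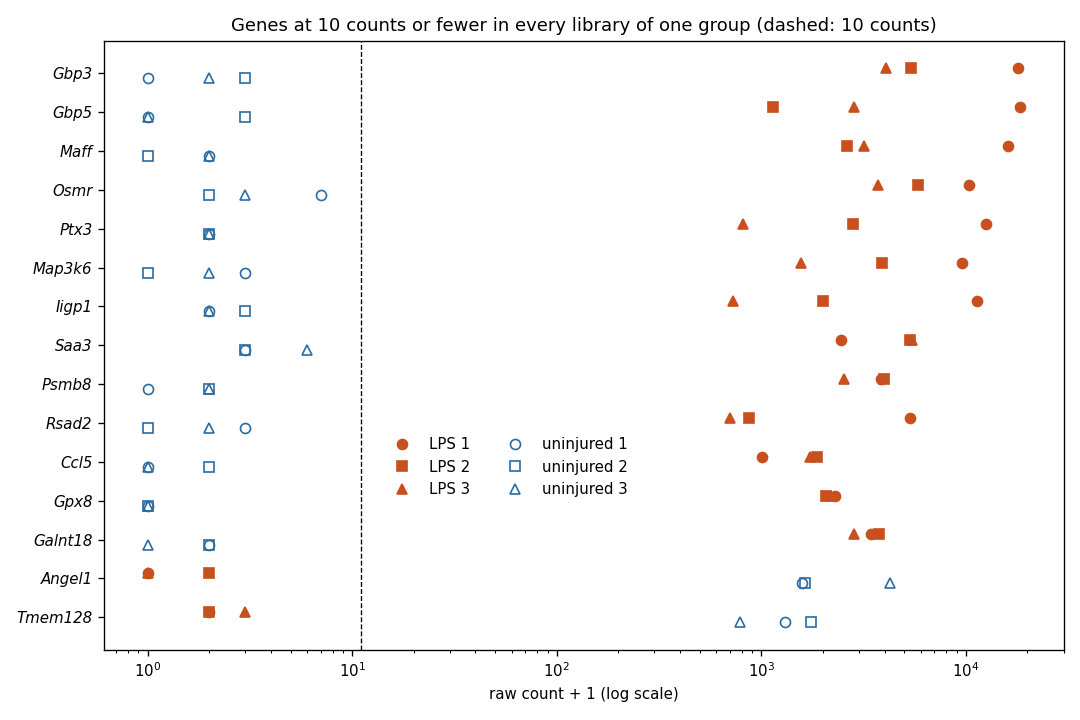
Raw count plus 1 (log scale) in each Smarca4cKO library for 15 genes at 10 counts or fewer in every library of a group, with LPS in filled orange and uninjured in open blue symbols and the dashed line at 10 counts. Gbp3 to Galnt18 were high in all 3 LPS libraries and near 0 in uninjured ones, and Angel1 and Tmem128 were the reverse.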

How the data were processed

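Ribosomes tagged in cells with Gfap-Cre activity were precipitated and their RNA was sequenced as 50 bp paired reads, per the labels' protocols. The submitters' processing notes list the aligner STAR (2.4.0j), the counter HTSeq (0.6.0), the package edgeR (3.28.0) and mm10 with no roles. Whether counting used strand is not given in the sources used here, so overlapping and antisense genes are uncertain, as are close copies (class I heavy chains, metallothioneins, Gbp, Ifitm and Serpina3 genes). The authors deposited raw counts per gene, used here, beside their own log2 ratios and p-values, quoted only as theirs.

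Counts were analysed in R 4.3.3 with edgeR 4.0.16: TMM scaling, filterByExpr, the quasi-likelihood test with that version's default dispersions, and Benjamini-Hochberg adjustment over all tested genes. Alternatives were DESeq2 1.42.0, limma 3.58.1 voom with sample quality weights, median-of-ratios scaling, no low-count filter, a fit of members alone, all 25 libraries, and each library left out. A robust fit and the newer dispersions that edgeR also offers were chosen after seeing the data. CPM compare libraries, not genes of different length.

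The members and gene lists were chosen with earlier results of these data known. Named genes were the 10 largest called non-overlapping changes each way, filled by unadjusted p where fewer were called; up to 2 called genes each way per list; 14 set genes (Socs3 had no row); the most abundant gene of each marker list; the 5 smallest adjusted p each way; the 5 largest called differences each way for each interaction; and up to 5 called genes each way outside the member set, of which there were none. Other named genes were chosen after their values were seen. Some results, 1 of the genes named by this rule among them, are not reported here. Floors cover counting error only.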

Additional observations from a re-analysis of the deposited data

Results flagged for a closer look

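The LPS responses of 12 gene and genotype pairs, taken from the 5 largest called differences each way, differed between genotypes by the edgeR interaction test. These were among genes with over 10 counts in every library, when all genes were fitted. In the fit of those genes alone 8 of the 12 did not pass: all 3 against WT (edgeR adjusted p 0.142 to 0.37) and the 5 higher ones of these pairs against Stat3cKO (0.0547 to 0.113). Clu and Agt, not among these pairs, were also higher against Stat3cKO and passed in that fit (edgeR adjusted p 0.00587 and 0.0116). Against WT, the log2 response in Smarca4cKO differed by -2.38 for 1700003M07Rik, by -2.88 for Kif5a and by 1.70 for Vdac2. Against Stat3cKO it differed by 1.35 for Ctsl, 2.02 for Fam129b, 1.60 for Mpp6, 1.71 for Slc39a1 and 1.17 for Wfs1. In the other direction it differed by -3.03 for 1700003M07Rik, -2.58 for Kif5a, -3.54 for Samhd1 and -3.30 for Txnip. Kif5a and 1700003M07Rik had higher levels in uninjured Smarca4cKO astrocytes than in uninjured astrocytes of either other genotype: Kif5a averaged 151 ± 63.8 CPM in uninjured Smarca4cKO, 29.8 ± 13.3 CPM in uninjured WT and 40.4 ± 8.03 CPM in uninjured Stat3cKO astrocytes, and 1700003M07Rik 225 ± 45.8, 33.1 ± 8.45 and 26.1 ± 8.67 CPM in the same order, each other genotype scaled with Smarca4cKO separately. This level difference was not tested, and genotype and strain cannot be told apart in it.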

How the results depend on the processing

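No paired analysis was possible because the labels give each library a number of its own as title, with none shared between the groups. The count of members that rose was 2 and stayed at 2 with median-of-ratios scaling and with no low-count filter. It was 20 in the fit of members alone, 118 with DESeq2, 38 with weighted limma, 140 in the fit of all 25 libraries, 4 with the robust fit and 61 with the newer dispersions, both chosen after seeing the data, and 2 to 5 with a library left out. The count of members that fell was 0, and it was 2, 41, 9 and 52 in the first 4 of these, 4 with the newer dispersions, 0 with the robust fit and 0 with any library left out. The count of genes whose response differed from WT was 25, with 0 in the fit of genes over 10 counts in every library, 100 with DESeq2 and 14 to 367 with a library left out. Against Stat3cKO it was 67, with 12, 210 and 15 to 466 in the same order. Among the members named, a sign changed in 6 of 444 fits that left out a library, all for genes that neither edgeR, DESeq2 nor weighted limma called with all libraries: the log2 fold change ranged over -0.023 to 0.83 for Map2, -0.12 to 0.46 for Notch3, -0.12 to 0.85 for Slc2a1 and -0.15 to 0.060 for Smarca2. In the 592 other fits of these genes none changed sign, 395 kept their side of the threshold and 197 passed it. For the genes of the pairs flagged above in the differences from WT and from Stat3cKO, 4 of 12 and 5 of 36 such fits lost the call, as did 25 of 42 and 73 of 117 fits that left out a library. The cause of the differences between tools was not tested.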

Other observations

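The counts for further gene groups are to be read against all members, of which 8.76% were higher and 6.49% lower without overlap. No difference between lists was tested, and several lists are small. Of 38 members that encode cytosolic ribosomal proteins, 35 had a positive log2 fold change, 8 did not overlap and were higher, 0 were lower, and the median was 0.68, against 0.05 over all members. Many ribosomal protein genes have processed pseudogene copies, so reads could be split between them. The 44 nuclear-encoded oxidative phosphorylation members had 1 higher and 2 lower without overlap and as many positive as negative log2 fold changes (22 positive), and the 28 proteasome members had a median of 0.24 with 2 higher and 0 lower. Of 20 axon guidance and synapse-organising members, 2 were higher and 3 lower without overlap. Among 10 NF-kB pathway members 1 was higher and 1 lower, with a median of 0.50, and among 10 JAK-STAT regulators 2 were higher and 0 lower, with a median of 0.14. Of 8 cytokine, chemokine and receptor members 2 were higher and 2 lower. The A1-type and A2-type astrocyte lists had 3 members each, 2 of them higher without overlap in each list. None of the 4 immediate early factor members had groups that failed to overlap, although all 4 had positive log2 fold changes, and 2 of 6 cell division members were higher.

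LPS library 1 was the highest LPS library for 32 of 50 astrocyte identity genes (64%) and 21 of 36 sterol and fatty acid genes (58.3%), and LPS library 3 for 14 of 18 oligodendrocyte markers (77.8%), against 35.2% and 30.4% of all genes of the table in the same order of libraries.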
